A study of Mus musculus with 12 samples.

Results

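Described here are 9 genes of the interferon and inflammatory response in the newborn mouse brain: the interferon-induced genes Isg15, Ifit1, Ifit3, Irf7, Bst2 and Ifitm3, and the inflammatory genes Serpina3n, Ccl2 and Lcn2. They were taken by symbol from tables of 23983 entries per tissue, and all 9 were found in both. Whole cortex and subcortex were collected at postnatal day 0 from wild-type mice (WT) and from mice called Reck vascular KO (vKO), of mixed strain in both cases. The vKO animals carried Reck flex2/Δex1 and, as Cre driver, Tie2Cre, which is active in endothelium and also in blood lineages. The WT groups are labelled only as wild type. The labels give 12 libraries in 4 groups of 3, and do not say whether the libraries of a group came from separate animals. Each gene has 1 value per group in the tables. Replicate error is therefore unknown throughout, as is library depth.

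Type I interferons bind the receptor made of Ifnar1 and Ifnar2, and the kinases Jak1 and Tyk2 then activate STAT proteins, which join Irf9 and bind a promoter element called the interferon-stimulated response element (ISRE). The genes switched on in this way block viruses and also form part of a basal programme in microglia, macrophages and endothelium. Inflammatory cytokines act largely through NF-kB and Stat3, and in the brain they raise acute phase genes such as Lcn2 and Serpina3n in reactive astrocytes and vessels, and chemokines such as Ccl2 that draw in monocytes.

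The verbs rose and fell are kept for genes with a q-value under 0.05 in the authors' deposited table. Levels are FPKM, fragments counted per transcript length and per number of mapped fragments. Differences are log2((vKO FPKM + 1)/(WT FPKM + 1)), called the log2 ratio below, which understates changes of genes with low values. Positions are those of mm10, and gene positions are the loci in the authors' files.

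The promoter sequences are shown because the ISRE is the element through which interferon-induced genes are known to be switched on. RefSeq promoters (GRCm38.p6, the same build, 250 bases before to 50 after each annotated start) were matched for 8 of the 9 genes. The ISRE was searched on both strands as GAAA, any pair of bases and GAAA again. It stood in 5 of these 8, all of them interferon-induced members, and in 3.44% of 32851 promoters of the same length. Capitals below mark the matches in the 160 bases just before the start, each read 5′ to 3′ on the strand of its gene. For Ifitm3, whose matches lie just after the start, 30 bases from the start are given.
Isg15 (chr4:156200819-156200978, minus strand): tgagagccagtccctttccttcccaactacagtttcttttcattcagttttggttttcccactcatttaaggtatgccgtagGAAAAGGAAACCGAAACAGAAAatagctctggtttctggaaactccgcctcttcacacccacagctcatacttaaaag
Bst2 (chr8:71537473-71537632, minus strand): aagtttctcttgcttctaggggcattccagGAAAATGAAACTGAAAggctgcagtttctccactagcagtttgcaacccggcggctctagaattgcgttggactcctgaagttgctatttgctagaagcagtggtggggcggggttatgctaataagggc
Ifitm3 (chr7:141010715-141010744, minus strand): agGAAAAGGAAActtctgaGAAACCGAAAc
Ifit1 (chr19:34640729-34640888, plus strand): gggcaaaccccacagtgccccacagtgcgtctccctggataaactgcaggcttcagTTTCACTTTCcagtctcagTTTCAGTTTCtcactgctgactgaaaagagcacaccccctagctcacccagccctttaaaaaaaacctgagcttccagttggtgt
Ifit3 (chr19:34583369-34583528, plus strand): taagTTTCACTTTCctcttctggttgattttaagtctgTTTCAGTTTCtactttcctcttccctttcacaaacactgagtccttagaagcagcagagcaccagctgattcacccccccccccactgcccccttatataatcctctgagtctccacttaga
Serpina3n (chr12:104406548-104406707, plus strand): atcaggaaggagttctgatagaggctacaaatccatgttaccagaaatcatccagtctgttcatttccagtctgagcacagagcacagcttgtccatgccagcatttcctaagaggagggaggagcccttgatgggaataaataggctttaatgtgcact

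Isg15 held 3 overlapping matches, between bases -78 and -57 from the start. In Bst2 a pair of overlapping matches ran from -130 to -115. In Ifit1 and Ifit3 the matches were on the other strand, from -104 to -76 and from -156 to -113. Ifitm3 had them at bases 3 to 12 and 20 to 29, counted from 1 at the start. Irf7, Serpina3n and Lcn2 had none in the 300 bases searched, and Ccl2 had no entry. TTCNNNGAA, the letters of the STAT-bound element GAS, and the NF-kB consensus each matched in 2 of the 8, Bst2 and Ifitm3 both times, against 8.3% and 8.46% of all promoters. In Bst2 the GAS match overlaps both the NF-kB and the ISRE match, and in Ifitm3 it overlaps the second ISRE match. A match is a description of the letters and shows no binding.

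In cortex 3 interferon-induced members rose in vKO, Ifitm3, Bst2 and Isg15, and in subcortex 1 inflammatory member rose, Serpina3n. These 3 and this 1 were all the calls among the 4 members that the authors had tested in each tissue. These counts stand against 19.5% of all tested entries called in cortex, 8.15% higher and 11.3% lower, and 0.714% in subcortex, 0.451% higher and 0.262% lower. With a q-value under 0.01 the shares called in either direction were 11.3% in cortex and 0% in subcortex, with a 1.5-fold minimum 11.2% and 0.714%, and with a minimum of 1 FPKM 19.5% and 0.716%. The remaining 5 members in each tissue were not tested because of low data, with no value above 0.891 FPKM in cortex or 0.798 in subcortex. Since a gene can enter the test through the group where it is high, the count of calls among tested members says little about the others.

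**Figure D1:**
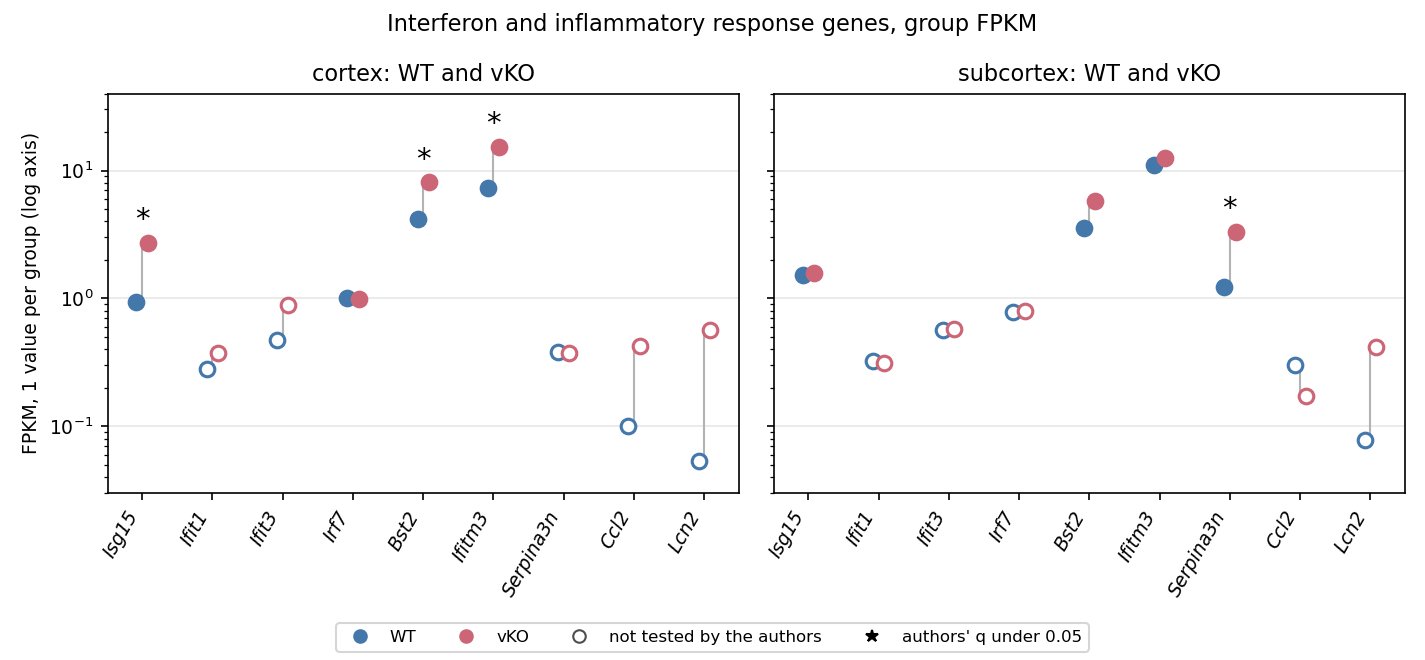
Level of the 9 genes in FPKM (log axis, 1 value per group) in cortex and subcortex, WT in blue and vKO in red, open circles where the authors did not test the gene and an asterisk where their q-value was under 0.05. Ifitm3 and Bst2 stand highest in all 4 groups, and Isg15, Bst2 and Ifitm3 carry the asterisk in cortex, Serpina3n in subcortex.

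Ifitm3 encodes a membrane protein that keeps enveloped viruses from fusing in endosomes (chromosome 7, 141009590 to 141010744, 2 exons, minus strand). In cortex its level was 7.24 FPKM (WT) and 15.3 (vKO), in subcortex 11.1 and 12.6. It was the most abundant of the 9 genes in each group. In cortex it rose 2.11-fold, a log2 ratio of 0.98 (q-value 0.00256, the authors' deposited table). For subcortex the ratio of 0.16 was not called (q-value 0.999, the authors' deposited table). Its family members Ifitm1 and Ifitm2, encoded beside it, also rose in cortex, from 2.63 to 5.79 and from 30.6 to 43.5 FPKM. With the trend of cortex ratios over transcript length and GC content removed (described further on), the log2 ratio of Ifitm1 went from 0.90 to 0.54 and that of Ifitm2 from 0.50 to 0.09. The pseudogene Gm6885 shares 356 bases with Ifitm3 at 91.6% identity, so a part of the reads may be shared.

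Bst2 encodes tetherin, which holds budding virus particles at the cell surface (chromosome 8, 71534262 to 71537437, 5 exons, minus strand). Cortex had 4.14 FPKM in WT against 8.07 in vKO, subcortex 3.56 against 5.79. It was thus above WT in both tissues, and called in cortex. There the fold was 1.95 and the log2 ratio 0.82 (q-value 0.00906, the authors' deposited table). For subcortex the fold was 1.62, the log2 ratio 0.57, and the authors' deposited table lists an unadjusted p-value of 0.0248 and a q-value of 0.618. Whether its ratio differs between the tissues was not tested, and no values per replicate were used that could test it.

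Isg15 encodes a ubiquitin-like protein that is attached to other proteins and is among the genes most strongly induced by type I interferon (chromosome 4, 156199424 to 156200818, 2 exons, minus strand). The cortex values were 0.941 FPKM in WT and 2.73 in vKO, and the subcortex values 1.52 and 1.59. WT cortex was the lowest of the 4 groups, vKO cortex the highest, and both subcortex groups lay between. In cortex it rose 2.91-fold, a log2 ratio of 0.94 (q-value 0.0248, the authors' deposited table). Its subcortex ratio of 0.04 was not called (q-value 0.999, the authors' deposited table). An annotated copy, AC151275.1, matches 482 bases of the transcript at 95.2% identity.

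Irf7, the transcription factor that amplifies interferon production, stayed near 1 FPKM in cortex, at 1.02 in WT and 0.996 in vKO. Its log2 ratio of -0.02 was not called (q-value 0.964, the authors' deposited table). In subcortex it was not tested and stood at 0.791 and 0.798 FPKM. The gene overlaps Phrf1 on the opposite strand. No source used here says whether the authors' counting used strand.

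Ifit1 and Ifit3, which encode proteins that bind viral RNA and its partners, were not tested in either tissue. For Ifit1 the WT and vKO levels were 0.282 and 0.378 FPKM in cortex, 0.324 and 0.316 in subcortex. For Ifit3 they were 0.472 and 0.891 FPKM in cortex, 0.567 and 0.579 in subcortex. Their highest value was that of vKO cortex, but no test stands behind it. Ifit3 shares 1700 bases at 97.8% identity with Ifit3b, whose cortex entry went from 0.148 FPKM (WT) to 0.172 (vKO), so reads of the pair cannot be assigned with certainty.

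Serpina3n, a secreted inhibitor of serine proteases and a marker of reactive astrocytes (chromosome 12, 104406708 to 104414329, 5 exons, plus strand), had the opposite distribution over tissues. Cortex, where it was not tested, had 0.384 FPKM in WT against 0.376 in vKO, and subcortex 1.23 against 3.32. The subcortex values were the higher ones in both genotypes. In subcortex it rose 2.70-fold, a log2 ratio of 0.96. The authors' deposited table lists a p-value of 5e-05, the lowest it holds, and a q-value of 0.0104. Of the tested genes in its length decile 0.441% were called higher. The 9 other genes of the Serpina3 cluster were under 1 FPKM in all groups and none was tested. Serpina3g had 0.164 FPKM (WT) and 0.294 (vKO) in subcortex, and Serpina3h, listed at 0 for WT, had 0.226. No transcript of another gene matched Serpina3n over 100 bases at 90% identity or more.

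Ccl2 and Lcn2 were too low for the authors' test in both tissues. Ccl2, the main chemokine for monocytes, went from 0.101 FPKM (WT) to 0.426 (vKO) in cortex and from 0.302 to 0.173 in subcortex. Its order of the groups thus turned between the tissues. Lcn2, an iron-siderophore carrier of neutrophil granules and reactive astrocytes, went from 0.0538 to 0.563 FPKM in cortex and from 0.0789 to 0.421 in subcortex. These are the largest FPKM ratios among the members, 10.5 and 5.33, but on values this low they carry no call. Their log2 ratios, which damp low values, were 0.57 and 0.40.

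**Figure D2:**
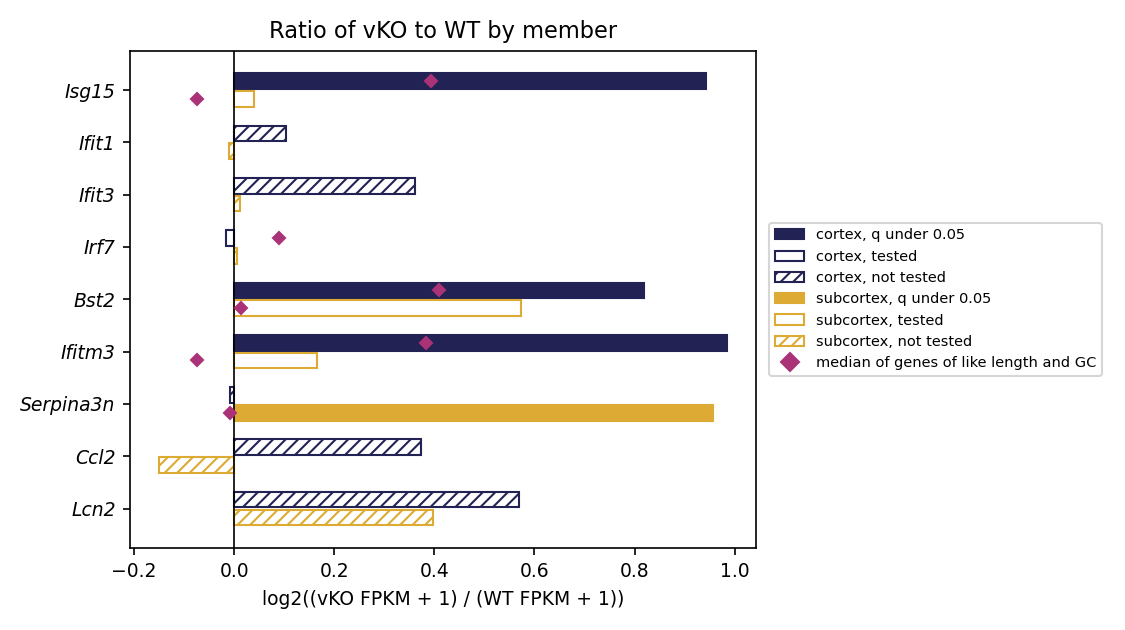
The log2 ratio of vKO to WT for each gene, cortex in dark blue and subcortex in yellow; filled bars passed the authors' q-value of 0.05, open bars were tested and not called, hatched bars were not tested. Diamonds give the median log2 ratio of tested genes of like transcript length and GC content, 0.38 to 0.41 for the 3 genes called in cortex and -0.01 for Serpina3n in subcortex.

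Between the tables, levels can only be set side by side, since no source used here says whether they were scaled together. The median log2 ratio of WT subcortex to WT cortex over 13002 entries with at least 1 FPKM in both was 0.05. Of the 9 genes 7 were higher in WT subcortex than in WT cortex, and Irf7 and Bst2 were lower. In vKO 1 of 9, Serpina3n, was higher in subcortex. The median log2 ratio of vKO subcortex to vKO cortex was 0.02, over 12983 entries with at least 1 FPKM in both. The share of all entries higher in subcortex was not counted in either genotype, so these counts only describe the members. Ifit1, Ifit3, Ccl2 and Lcn2, all among the 7, were not tested in either tissue. For Isg15, Ifit3, Ifitm3 and Lcn2 the order was the same, with WT cortex lowest, then WT subcortex, vKO subcortex and vKO cortex. Without values per replicate, neighbours in this order cannot be said to differ.

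In cortex the ratio moved with transcript length, and the 3 genes called there are short, at 678 bases for Ifitm3, 756 for Isg15 and 792 for Bst2. They fall in the shortest decile of tested genes, of which 28.2% were called higher, with a median log2 ratio of 0.36. With the trend with length and GC content removed, the log2 ratio of Ifitm3 was 0.60, that of Isg15 0.55 and that of Bst2 0.41, all with the same direction as before. In subcortex the shortest decile had a median of -0.01. Serpina3n, with 2064 bases, was at 0.97 there with the trend removed, and Bst2 at 0.56. The part of RNA quality or library preparation in the length trend was not tested.

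**Figure D3:**
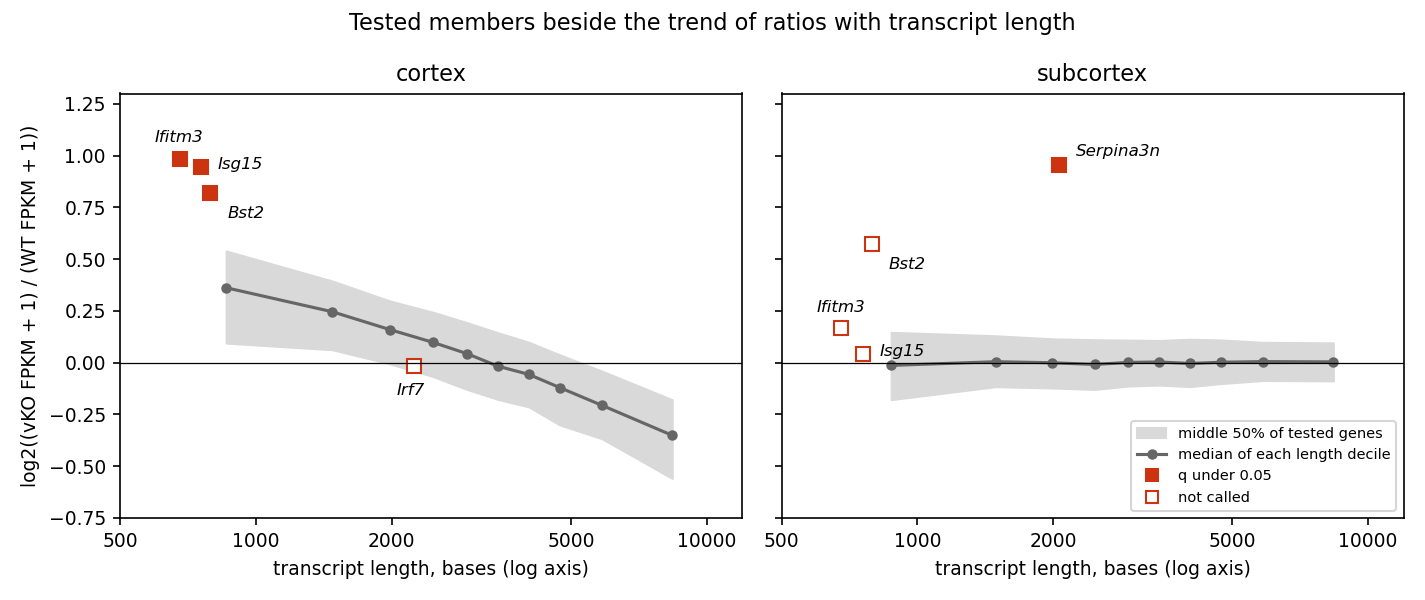
Log2 ratio of vKO to WT against transcript length in bases (log axis): the grey line joins the medians of 10 length deciles of tested genes, the band holds their middle 50%, and squares are tested members, filled where called. In cortex the decile medians go from 0.36 to -0.35, and Ifitm3, Isg15 and Bst2 lie above the band of the shortest decile, while in subcortex the line is flat near 0.

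Cell type markers are given beside these results as counts, with 8.15% of all tested cortex entries called higher and 11.3% lower, and 0.451% and 0.262% in subcortex. By the calls of the authors' deposited table, 7 of 12 microglial markers tested in cortex rose and 1 fell. Their summed level was 63.7 FPKM in WT and 137 in vKO. Tyrobp, an adaptor of myeloid receptors, rose from 8.59 to 27.5 FPKM, the complement genes C1qa from 10.3 to 27.0 and C1qb from 7.55 to 20.8, and the receptor Trem2 from 1.85 to 5.29. The remaining rises, named after their values were seen, were those of C1qc, Aif1 and Cx3cr1, the last from 2.73 to 4.82 FPKM. Sall1, a transcription factor on this list, fell from 5.06 to 3.28, and its log2 ratio of -0.50 was -0.25 with the trend removed. Its WT level in subcortex was 2.66 FPKM, and no other marker of the list was lower there than in WT cortex. The part of microglia in the level of Sall1 was not tested. The median of the microglial list was 0.82, and 0.68 with the trend removed. The 4 tested markers without a call, likewise named afterwards, were Tmem119, P2ry12, Csf1r and Fcrls, of which P2ry12 had 2.41 FPKM (WT) and 2.06 (vKO). Among 8 tested markers of border macrophages and monocytes 6 rose and none fell (the authors' deposited table), with sums of 27.1 and 91.6 FPKM. Lyz2, lysozyme, made up most of this change, from 3.14 to 47.9 FPKM, and Pf4, Cd68 and Cd163 were among the others. The monocyte markers Ccr2 and Ly6c2, not tested and named after their values were seen, were near 0, Ccr2 at 0.0558 FPKM (WT) and 0.255 (vKO), Ly6c2 listed at 0 for WT and at 0.0361 for vKO.

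In subcortex 0 of 12 tested microglial markers were called in the authors' deposited table (1 had an unadjusted p-value under 0.05), and the sums were 94.9 and 107 FPKM. The highest of them were C1qc, at 17.3 FPKM (WT) and 22.4 (vKO), and Tyrobp, at 16.3 and 17.1. Cd163 and Lyz2 rose there among 7 tested macrophage markers, with sums of 29.7 and 34.5 FPKM. Lyz2 alone went from 4.86 to 10.1 FPKM. Of the 7 tested markers 4 were above WT, and their median log2 ratio was 0.01. Cd68, at 3.33 FPKM (WT) and 2.59 (vKO), and F13a1, at 4.76 and 4.34, were below WT without a call. Both were named after their values were seen. In bulk tissue more cells of a type and more RNA per cell cannot be told apart. The part of these cells in the rises of Isg15, Bst2, Ifitm3 and Serpina3n was not tested.

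Lcn2 is also stored by neutrophils, whose part in its values was not tested. Their 9 marker entries summed to 2.39 FPKM in WT and 38.9 in vKO cortex. By the authors' deposited table, 1 of 3 tested rose in cortex, S100a9, from 0.908 to 17.2 FPKM. S100a8, its partner in the calprotectin dimer, went from 0.941 to 18.4 without a call (q-value 0.143). Retnlg, from 0.0770 to 1.45, was not called either. In subcortex the sums were 2.27 and 8.35 FPKM and 0 of 2 tested markers were called (1 had an unadjusted p-value under 0.05), S100a8 with 1.32 and 4.47 FPKM and S100a9 with 0.541 and 2.86. The granule genes, named after their values were seen, were low: Elane was listed at 0 in all 4 groups, and Camp and Ltf had 0.852 and 0.340 FPKM in vKO cortex. Lymphocyte markers were not tested in either tissue, with sums from 0.538 to 1.53 FPKM.

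Red cell genes were much farther apart in cortex than in subcortex. Their entries, some of which overlap, summed in cortex to 310 FPKM (WT) and 5472 (vKO), in subcortex to 531 and 634. In cortex 2 of 5 tested rose, the joint entry of the beta globins Hbb-b1 and Hbb-bs from 233 to 4173 FPKM and Alas2, the first enzyme of haem synthesis in red cells, from 5.70 to 34.6. In subcortex 0 of 5 were called (0 with an unadjusted p-value under 0.05) by the authors' deposited table. Whether this blood signal has a part in the members' values was not tested.

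Endothelial markers went both ways in cortex, 2 higher and 3 lower of 11, with sums of 105 and 88.9 FPKM. Emcn, an endothelial sialomucin, rose from 3.30 to 8.03 FPKM. The tight junction gene Cldn5 fell from 46.8 to 24.6, and the VEGF receptors Kdr from 11.0 to 5.30 and Flt1 from 3.42 to 1.96. With the trend removed the log2 ratio of Flt1 went from -0.58 to -0.12 and that of Kdr from -0.93 to -0.70. That of Cldn5 went from -0.90 to -1.07 and that of Emcn from 1.07 to 0.93. In subcortex Pecam1 and Cdh5 rose, 2 of 11, and the sums were 91.3 and 106 FPKM. Of 8 astrocyte and radial glia markers 1 rose, Fabp7, and 3 fell, Sox9, Slc1a2 and Aqp4, in cortex, and 0 were called in subcortex (1 with an unadjusted p-value under 0.05) in the authors' deposited table. Of 8 meningeal fibroblast markers Dcn and Lum rose and Slc22a6 fell in cortex, and Slc22a6 fell in subcortex. Of 7 neuronal markers Dcx fell in cortex and 0 were called in subcortex (0 with an unadjusted p-value under 0.05) by the authors' deposited table.

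**Figure D4:**
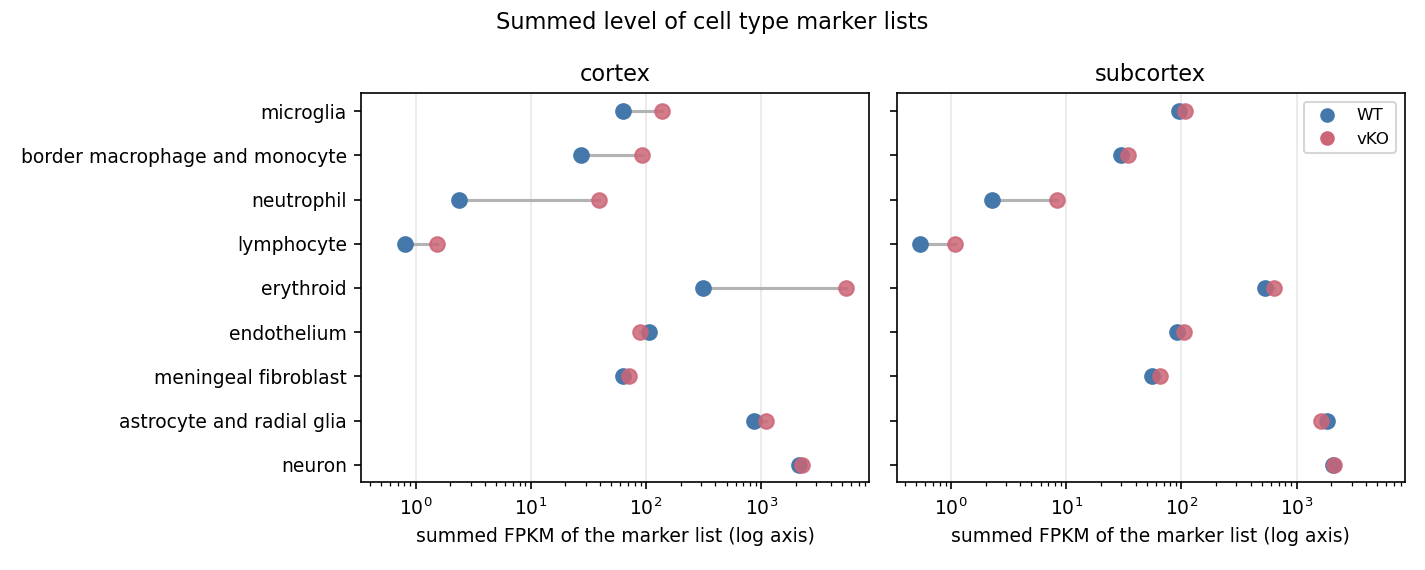
Summed FPKM (log axis) of the marker lists of 9 cell types in WT (blue) and vKO (red), for cortex and subcortex; globin entries of the erythroid list overlap. Neutrophil, macrophage, microglial and erythroid sums are farther apart in cortex than in subcortex, while neuronal sums lie close together in both.

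The other genes of these pathways were taken from 11 lists of 180 symbols, of which 179 were found. In cortex 93 were tested and 16 rose and 1 fell, 17.2% and 1.08% against 8.15% and 11.3% of all tested entries. Called in either direction were 18.3% of these genes, against 19.5% of all tested entries. Their median log2 ratio was 0.15, against 0.00 over all tested entries, and 0.11 once the trend was taken off. In subcortex 1 of 87 rose and 0 fell, 1.15% against 0.451% higher over all entries, with a median of 0.09. By the authors' deposited table, an unadjusted p-value under 0.05 was found for 31 of the 93 in cortex, 33.3% against 32.1% of all tested entries, and for 13 of the 87 in subcortex, 14.9% against 6.31%. These shares are a description, with no test.

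The list of interferon ligands and receptors held 11 genes, of which 5, all receptor chains, were tested in each tissue. In cortex Ifngr2, a chain of the receptor for interferon gamma, rose from 32.1 to 42.7 FPKM, the only call among the 5. In cortex Ifnar1 had 15.7 FPKM (WT) and 14.2 (vKO), Ifnar2 10.9 and 12.1, both named after their values were seen. The 5 ligands listed, which do not include interferon alpha, and the receptor Ifnlr1 were not tested, with no value above 0.237 FPKM. In subcortex none of 5 was called by the authors' deposited table (1 with an unadjusted p-value under 0.05), and Ifngr2 had 43.7 FPKM in WT and 40.2 in vKO there, Ifnar1 12.97 and 12.80.

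The list of nucleic acid sensors and their adaptors had 8 tested genes in cortex. Of these Tlr4, the receptor of bacterial lipopolysaccharide and not itself a nucleic acid sensor, rose from 0.588 to 1.28 FPKM. Aim2, a sensor of cytosolic DNA, fell from 2.17 to 1.35, the one pathway gene that fell. No other gene of the list was called. The rise is 12.5% of the 8 tested, against 8.15% called higher over all tested entries. The kinase Tbk1 and the factor Irf3 led the list in subcortex, at 11.1 and 9.31 FPKM in WT and 11.7 and 8.24 in vKO, and 0 of 7 were called there by the authors' deposited table (1 with an unadjusted p-value under 0.05).

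Of 12 tested JAK-STAT and IRF genes in cortex 2 rose, 16.7% against 8.15% over all tested entries. Socs3, a feedback inhibitor induced through Stat3, went from 2.51 to 4.30 FPKM, and Irf8, a factor of myeloid cells and microglia, from 0.599 to 1.20. The list's median was -0.07. Stat2 and Irf9, 2 subunits of the complex that binds the ISRE, were not called and are named here after their values were seen, at 5.38 and 5.53 FPKM in WT and 4.19 and 4.58 in vKO cortex. In subcortex 0 of 11 were called (2 with an unadjusted p-value under 0.05) in the authors' deposited table, with Jak1 at 30.5 FPKM in WT and 34.3 in vKO and Jak2 at 20.6 and 19.6.

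Besides the members, 46 further interferon-induced genes were listed, of which 23 were tested in cortex. Of the 23 tested, 4 rose, 17.4% against 8.15% over all tested entries. Slfn2, a regulator of T cell and macrophage growth, rose from 0.379 to 1.40 FPKM and Rtp4, a chaperone of receptors, from 0.877 to 1.67, beside Ifitm1 and Ifitm2. With the trend removed the log2 ratio of Slfn2 went from 0.80 to 0.52 and that of Rtp4 from 0.51 to 0.33. The median was 0.21 (0.14 with the trend removed), and 19 of the 23 were above WT. Another 23 were under 1 FPKM in both groups and not tested, among them classical genes such as Mx1, at 0.0406 FPKM in WT and 0.0274 in vKO, and Rsad2, at 0.329 and 0.813, both named after their values were seen. In subcortex 0 of 21 were called (1 with an unadjusted p-value under 0.05) by the authors' deposited table, with a median of 0.01. Ifitm2 had 34.4 FPKM in WT and 38.8 in vKO there, and the RNA editing enzyme Adar 18.5 and 20.3.

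Of the 46 further interferon-induced genes 33 had a promoter entry, and the ISRE letters stood in 15 of the 33. In this paragraph a gene counts if any of its promoters matched, while the 3.44% given earlier is a share of single promoters. Of the 3 called genes with a promoter in the table, Ifitm1, Ifitm2 and Slfn2, 1 held them, Ifitm2. Over all tested entries in cortex with a promoter they stood in 4.99% of 802 called higher, 2.87% of 1115 called lower and 3.24% of 8113 not called. These shares are a description, with no test.

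Ube2l6, the enzyme that carries ISG15 to its substrates, rose in cortex from 2.41 to 9.54 FPKM, a log2 ratio of 1.63 (q-value 0.000806, the authors' deposited table). Taking off the trend left 1.35. Both values were above those of each member. Trim25, an ISG15 ligase, was the other tested gene of the conjugation list, is named for that reason, and was not called, at 1.36 FPKM in WT and 1.17 in vKO. The activating enzyme Uba7 and the protease Usp18, both untested and named after their values were seen, had 0.332 and 0.298 FPKM in WT and 0.596 and 0.554 in vKO cortex. In subcortex Ube2l6, at 3.62 FPKM (WT) and 3.28 (vKO), was not called, nor was Trim25, at 0.979 and 1.12.

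Among the pathway lists, antigen presentation had the most calls in cortex, 5 of 9 tested and all higher. That is 55.6%, against 8.15% called higher over all tested entries. B2m, the light chain of MHC class I, rose from 19.8 to 36.8 FPKM, the class I heavy chains H2-K1 from 2.56 to 4.86 and H2-D1 from 10.9 to 16.6, and the immunoproteasome subunit Psmb8 from 0.340 to 2.01. The fifth, Psmb10, outside the rule of 4 named genes, rose from 8.60 to 13.02, and its log2 ratio of 0.55 was 0.33 with the trend removed. The median log2 ratio was 0.56 (0.35 with the trend removed). In subcortex 0 of 9 were called (2 with an unadjusted p-value under 0.05) in the authors' deposited table, with a median of 0.28, and B2m had 32.7 FPKM in WT and 29.3 in vKO. H2-D1 had 20.5 and 25.1.

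**Figure D5:**
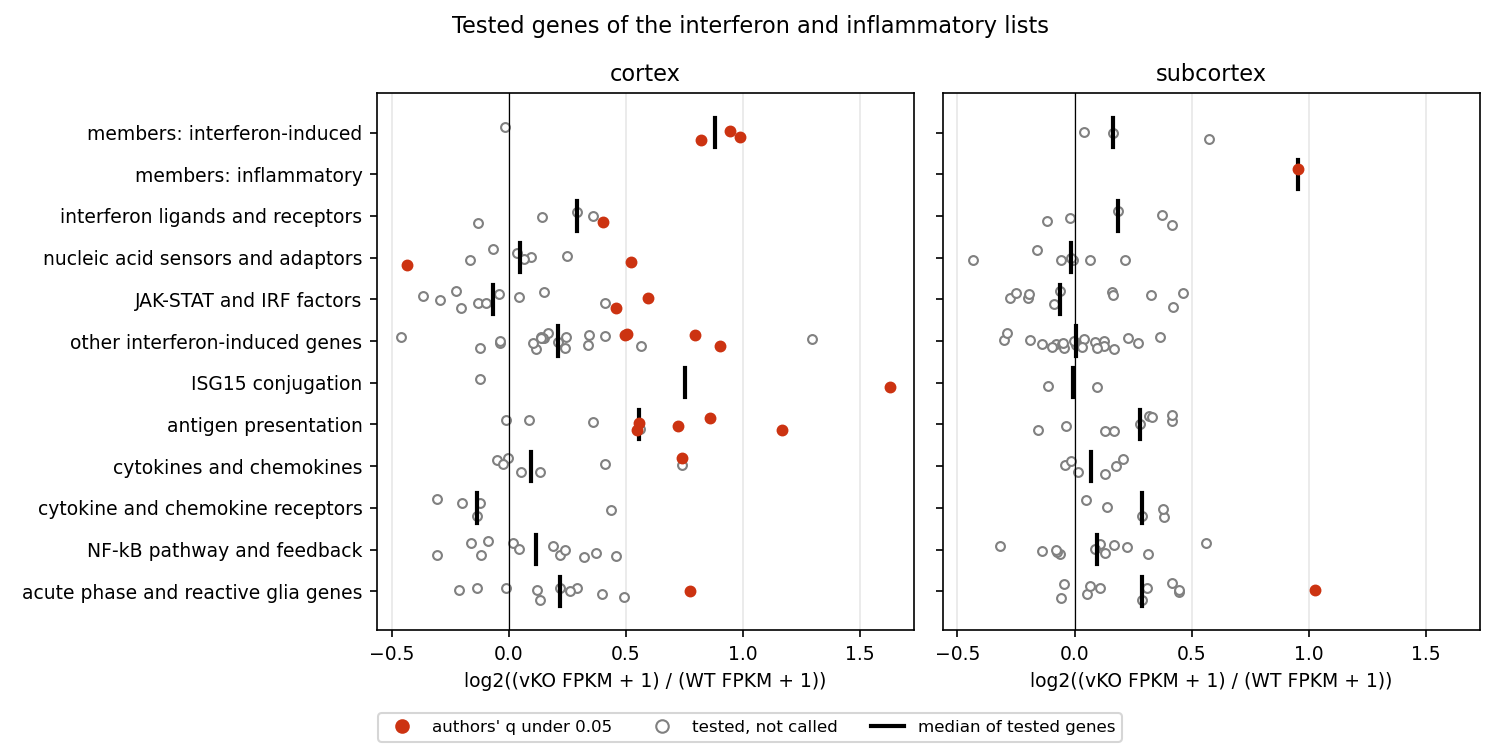
Log2 ratio of vKO to WT for each tested gene of the members' groups and of the pathway lists, red where the authors' q-value was under 0.05 and open otherwise, with a black bar at the median; the Serpina3 cluster, with no tested gene, is left out. Calls in cortex lie to the right of 0 apart from Aim2, and antigen presentation holds 5 of them.

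Of 8 tested cytokines and chemokines in cortex 1 rose, 12.5% against 8.15% over all entries. It was Ccl9, a chemokine of macrophages, from 0.383 to 1.31 FPKM, and 14 of the 22 were under 1 FPKM in both groups. In subcortex 0 of 6 were called (0 with an unadjusted p-value under 0.05) by the authors' deposited table, and the neuronal chemokine Cx3cl1 had 18.5 FPKM in WT and 21.6 in vKO, Cxcl12 11.1 and 12.2. None of 5 tested cytokine and chemokine receptors was called in cortex (2 with an unadjusted p-value under 0.05) or in subcortex (3) by the authors' deposited table. In cortex Cxcr4 had 19.9 FPKM (WT) and 16.0 (vKO), and Il6st, the shared signalling chain of the interleukin 6 family, 10.5 and 9.57. In subcortex Il6st had 14.1 and 15.6 FPKM, and Lifr 9.26 and 12.4.

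Of 12 tested NF-kB genes none was called in cortex (3 with an unadjusted p-value under 0.05) or in subcortex (1) by the authors' deposited table. Nfkbia, the inhibitor that NF-kB itself induces, had 12.1 (WT) and 17.004 FPKM (vKO) in cortex, and 12.3 and 15.6 in subcortex. The kinase Ikbkb had 10.5 and 8.33 in cortex, and the adhesion molecule Vcam1 11.9 and 12.7 in subcortex.

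The acute phase and reactive glia list, to which Serpina3n and Lcn2 belong by function, held 1 call, upward, among 11 tested genes in each tissue, 9.09% against 8.15% called higher over all entries in cortex and 0.451% in subcortex. In subcortex 3 of the 11 had an unadjusted p-value under 0.05 in the authors' deposited table. In cortex Vim, an intermediate filament of radial glia and reactive astrocytes, rose from 99.9 to 171 FPKM. In subcortex Hspb1, a small heat shock protein, rose from 2.60 to 6.32 FPKM (q-value 0.0491, the authors' deposited table). The list's median in cortex was 0.22 (0.10 with the trend removed), with 8 of the 11 tested genes above WT. The share of all tested entries above WT was not counted. Of the 11 tested genes 9 were above WT in subcortex, and the list's median there was 0.29 (0.28 with the trend removed). Hspb1, Osmr and Lbp, the 3 with an unadjusted p-value under 0.05 in the authors' deposited table, were among these 9. Gfap, the filament of astrocytes, and Cd44 were below WT there, without a call. Gfap had 8.86 FPKM (WT) and 8.54 (vKO). Osmr, Lbp, Gfap and Cd44 were named after their values were seen.

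Reck, the targeted gene, had 2.91 FPKM (WT) and 3.23 (vKO) in cortex, 2.37 and 3.49 in subcortex. A value over the whole gene and tissue does not check the deletion. Sex markers differed between the groups, with Xist going from 0.0417 FPKM (WT) to 18.6 (vKO) in cortex and from 0.0369 to 10.2 in subcortex. The Y-linked Eif2s3y went from 30.4 to 15.8 FPKM in cortex and from 27.6 to 13.3 in subcortex, Kdm5d from 11.2 to 6.07 and from 9.26 to 6.12, Uty from 9.32 to 5.66 and from 10.3 to 6.31, and Ddx3y from 16.8 to 13.1 and from 20.0 to 13.4. Both kinds of marker were thus present in vKO, and Xist was near 0 in WT. Sex and genotype therefore cannot be told apart for any member.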

How the data were processed

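RNA of 12 libraries (4 groups of 3) was sequenced by the authors after stranded total RNA preparation, per the labels' protocols. The submitters' processing notes name HISAT2 2.0.1, Cufflinks 2.2.1, Cuffdiff and mm10, with no order of steps; the annotation, the strand setting and the pooling of replicates are not given in the sources used here. The deposited table of each tissue holds 1 FPKM per gene and group, a test statistic (a score the authors' program gives, not used further), and the p-values and q-values that the authors deposited, per the file headers. The letters W and M of the columns were read as WT and vKO, since the labels hold only these genotypes. Adjusting the p-values again by Benjamini-Hochberg gave the deposited q-values to within 5.2e-07.

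From these files log2 ratios were computed with a pseudocount of 1 FPKM, and calls were taken as the authors' q-values under 0.05. No test over samples was run. Length and GC content came from the longest transcript in GENCODE M21, protein-coding where one exists (99.0% and 99.1% of tested entries), and their trend was removed as the median of 10 by 10 bins, tested on simulated data. Similar transcripts were searched with BLAST+ 2.17.0. Some genes of the lists are not reported here and stay out of every count and sum. Members and lists were chosen with earlier results of these data known. Named genes were all members and, per list and tissue, up to 4 called genes with the lowest q-value, or else the 2 with the highest level; other genes named were chosen after their values were seen. Python 3.11.15 and pandas 2.3.3 were used.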

Additional observations from a re-analysis of the deposited data

How the results depend on the processing

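At a q-value under 0.01 the members called in subcortex went from 1 to 0, the pathway genes called in cortex from 17 to 8 and those in subcortex from 1 to 0, and no entry of the subcortex table passes that level, whose lowest q-value is 0.0104. The 17 and 8 are 18.3% and 8.6% of the tested pathway genes in cortex, against 19.5% and 11.3% of all tested entries. With a q-value under 0.01 Isg15 in cortex was no longer called, while Bst2 and Ifitm3 were. At an unadjusted p-value under 0.05 the authors' deposited test has 13 of the 87 pathway genes in subcortex. A 1.5-fold minimum and a minimum of 1 FPKM with q-values adjusted again left the number of called members at 3 in cortex and 1 in subcortex. No called member changed direction with another pseudocount, with centring or after the trend with length and GC content was taken off. The ratios of the untested Ccl2 and Lcn2 depend on the pseudocount: without one, Lcn2 had log2 ratios of 3.39 in cortex and 2.42 in subcortex and Ccl2 2.08 and -0.81. Scaling the tables to the same median, an alternative chosen after seeing the data, left 7 members higher in WT subcortex. No paired analysis was possible because the tables hold 1 value per group, and for the same reason no replicate could be left out.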
